A study of Mus musculus with 6 samples.

Results

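The Nr4a and Egr genes encode transcription factors that lymphocytes switch on within minutes to hours of antigen receptor signalling. Microarrays were used to measure gene expression in memory phenotype CD4+ T cells. They were taken during the acute clinical phase of experimental autoimmune encephalomyelitis (EAE), an induced inflammatory demyelinating disease of mice. One group was isolated from spinal cord, where the disease acts (3 arrays), and the other from inguinal lymph nodes, labelled as draining (3 arrays). Both groups were female C57BL/6 mice aged 8 to 10 weeks with EAE induced by the myelin peptide MOG35-55, so no unimmunised or healthy group is part of the comparison. The labels give neither the sort gates for the memory phenotype nor the number of animals behind an array, so the p-values reflect only how these samples spread, and that spread may be technical. The 6 genes Nr4a1, Nr4a2, Nr4a3, Egr1, Egr2 and Egr3 were taken by name. They were read by 15 of the 45101 probe sets on the array, each annotated to 1 gene (10 for Nr4a and 5 for Egr), and they are 6 of 18193 genes tested.

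Nr4a1, Nr4a2 and Nr4a3 are orphan nuclear receptors that act without a known classical ligand, and their activity follows from how much of them is made. In T cells they are induced by antigen receptor and calcium signals, and in many cell types also by cyclic AMP through the factor CREB. Egr1, Egr2 and Egr3 are zinc finger factors induced mainly through the Erk pathway and, for Egr2 and Egr3, through NFAT. Egr2 and Egr3 are known in T cells for genes that restrain activation. Because both families answer the same receptor, their levels are often read together as a sign of recent antigen contact.

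The arrays had median intensities of 68 to 71. Of 18193 genes, 463 (2.54%) were called by limma at a Benjamini-Hochberg adjusted p below 0.05, 206 of them (1.13%) higher and 257 (1.41%) lower in spinal cord. The median log2 change over all genes was 0.0. Of 11 listed T cell markers 10 were measured, and 0 were called by limma (1 at an unadjusted p under 0.05), nor was any called with the block described next. Their summed intensity was 57451 to 66856 in spinal cord, against 58882 to 69369 in lymph node. In the titles each tissue has arrays 1, 2 and 3, and same-numbered arrays deviated together. With this number as a block in the fit 668 genes (3.67%) were higher and 1355 (7.45%) lower, and counts of calls that the block changes are given both ways below. These are bulk samples, in which a change in the number of expressing cells and a change in RNA per cell cannot be told apart.

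All 3 Nr4a genes rose in the spinal cord samples, by 5.47-fold to 16.0-fold, while 0 of the 3 Egr genes passed the same test. Of all genes, 1.13% were called higher. At an unadjusted p under 0.05 limma passed 1 of the 3 Egr genes, Egr1, which was also called with the block. Egr1 had the largest change of its family, 2.20-fold, and its groups did not overlap. Egr2 and Egr3 had changes of 1.08-fold and 1.29-fold, and their groups overlapped. Altogether 4 of the 6 genes had groups that did not overlap, all higher in spinal cord, as 8.81% of all genes did.

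**Figure D1:**
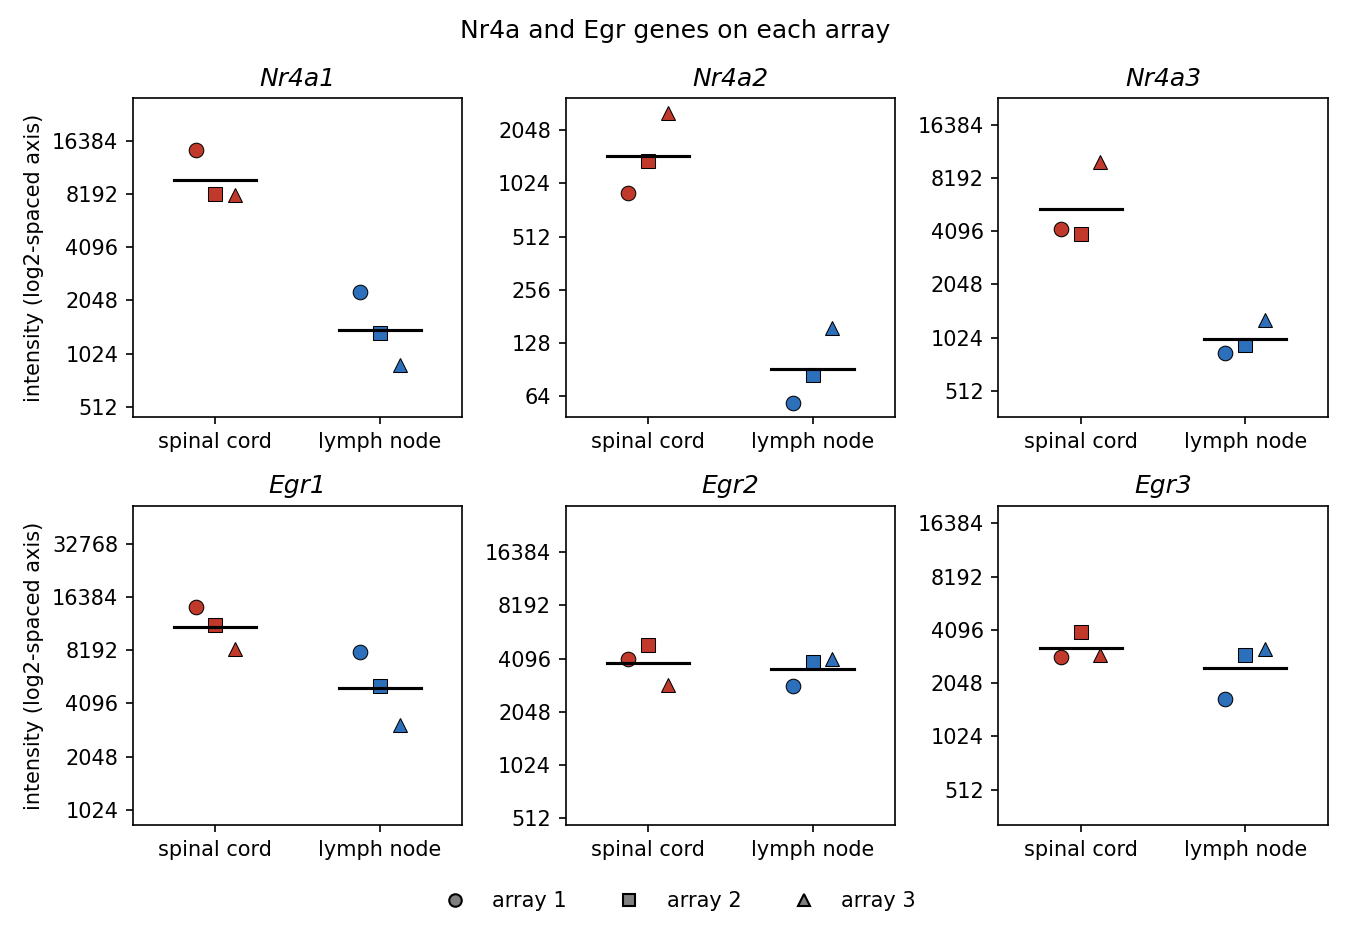
Intensity of the 6 genes on each array (log2-spaced vertical axes, each spanning the same fold range), with spinal cord left of lymph node; symbols mark array numbers and lines the mean of log2 values (n = 3 per tissue). Nr4a1, Nr4a2, Nr4a3 and Egr1 do not overlap between tissues, and Egr2 and Egr3 do.

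The promoters of the 3 Nr4a genes are shown because all 3 were called higher in spinal cord, beside that of Egr2, which was not called. Over the 6 arrays Nr4a1 ran closer to Egr1 (Pearson r = 0.93) than to Nr4a2 or Nr4a3 (r = 0.82 for each). RefSeq windows (GRCm38.p6) were given for 4 of the 6 genes. Each line holds the 250 bases before an annotated start, 5′ to 3′ on the gene's strand. Nr4a1 lies at chr15:101266596-101266845 (plus strand), Nr4a2 at chr2:57124004-57124253 (minus strand), Nr4a3 at chr4:48045055-48045304 (plus strand) and Egr2 at chr10:67537619-67537868 (plus strand). Capitals mark TGACG on either strand (CGTCA on the other), the core of the cyclic AMP response element (CRE) bound by CREB. They also mark the CArG box bound by serum response factor, which is downstream of Erk signals. Only exact CArG boxes were counted, that is CC, then 6 letters that are each A or T, then GG.
Nr4a1: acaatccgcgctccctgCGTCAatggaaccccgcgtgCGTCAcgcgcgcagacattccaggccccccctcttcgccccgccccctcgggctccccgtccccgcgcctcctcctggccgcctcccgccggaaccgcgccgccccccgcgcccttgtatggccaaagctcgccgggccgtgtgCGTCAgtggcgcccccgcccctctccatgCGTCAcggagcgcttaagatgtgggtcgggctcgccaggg
Nr4a2: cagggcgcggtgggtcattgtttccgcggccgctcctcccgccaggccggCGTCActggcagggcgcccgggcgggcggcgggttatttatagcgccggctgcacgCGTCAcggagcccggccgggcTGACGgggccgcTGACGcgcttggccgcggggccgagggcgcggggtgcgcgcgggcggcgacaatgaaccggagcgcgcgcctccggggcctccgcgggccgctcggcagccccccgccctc
Nr4a3: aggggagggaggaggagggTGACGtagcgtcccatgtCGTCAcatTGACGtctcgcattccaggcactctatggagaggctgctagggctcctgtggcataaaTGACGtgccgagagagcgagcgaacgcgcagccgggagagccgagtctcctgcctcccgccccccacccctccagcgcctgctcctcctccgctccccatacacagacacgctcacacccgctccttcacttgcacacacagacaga
Egr2: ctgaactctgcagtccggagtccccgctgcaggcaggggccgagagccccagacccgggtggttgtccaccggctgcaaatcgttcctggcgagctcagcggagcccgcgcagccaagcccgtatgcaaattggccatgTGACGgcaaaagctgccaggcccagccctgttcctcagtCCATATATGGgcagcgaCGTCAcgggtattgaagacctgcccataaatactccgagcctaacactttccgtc

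Each of the 3 Nr4a windows held 4 CRE cores and no exact CArG box. Near matches were not counted, such as ccttgtatgg in Nr4a1, which departs from the CArG pattern at 1 base. Of all 32851 windows of this length in the RefSeq table, 17.8% held at least 1 CRE core and 0.137% held at least 4. The cut of 4 is the count found in the 3 Nr4a windows, so that share is a description only. The windows were not matched for base content. In Nr4a1 the cores began 233, 213, 69 and 40 bases before the start, in Nr4a2 200, 144, 123 and 111 bases before it, and in Nr4a3 231, 213, 205 and 147 bases before it. None of the 4 printed windows held the full element TGACGTCA, which 1.55% of all windows held.

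The printed Egr2 window held 2 CRE cores (3.9% of all windows held at least 2) and a CArG box beginning 72 bases before the start, which 1.47% of all windows held. Egr2 has 5 annotated starts in the table, and 3 overlapping windows, among them the one shown, held both motifs. The window shown was chosen as the first that held both, so its matches cannot be weighed against the shares of all windows. The window at chr10:67535249-67535498 held neither motif, and that at chr10:67537316-67537565 held a CArG box only. A match is a description of the letters in the window and says nothing of whether a factor was bound in these cells.

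**Figure D2:**
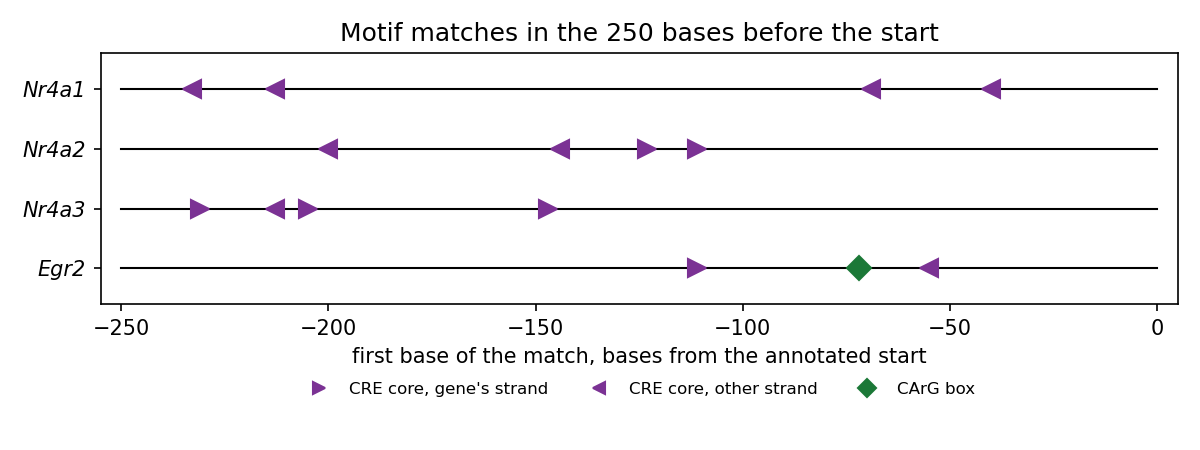
Position of CRE cores (arrowheads, pointing right on the gene's strand and left on the other) and CArG boxes (diamonds) in the printed windows, in bases from the annotated start. Nr4a1, Nr4a2 and Nr4a3 hold 4 CRE cores each, and the Egr2 window, chosen for holding both motifs, has 2 with a CArG box.

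Nr4a1 (also known as Nur77), the family member whose reporter mice are widely used to read antigen receptor signal strength, had intensities of 14488, 8167 and 8066 in spinal cord arrays 1, 2 and 3. It had 2274, 1346 and 880 in lymph node arrays 1, 2 and 3. The lowest spinal cord value was above the highest lymph node value, and array 1 was the highest in each tissue. The log2 change was 2.82 ± 0.40 (SE; 13.27 ± 0.48 in spinal cord, against 10.44 ± 0.69 in lymph node, log2 mean ± SD, n = 3 each; limma adjusted p = 0.0274). Only 0.297% of genes had a higher change. Within arrays of one number the ratio was 6.37, 6.07 and 9.17. Nr4a1 was no longer called without spinal cord array 1, 2 or 3 (limma adjusted p = 0.0726, 0.1 and 0.0826) and without lymph node array 2 or 3 (0.132 and 0.0592), with log2 changes of 2.49 to 3.18 over the 6 fits that left out 1 array.

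Nr4a2 (Nurr1), best known for its part in dopamine neuron development and also induced in activated T cells, showed the largest change of the 6 genes. Its brightest probe set had intensities of 901, 1366 and 2568 on spinal cord arrays, against 59, 85 and 155 on lymph node arrays. Here array 3 was the highest in each tissue, the opposite of Nr4a1, and the lowest spinal cord array was still above every lymph node array. The log2 change was 4.0 ± 0.49 (SE; 10.52 ± 0.76 in spinal cord, against 6.52 ± 0.70 in lymph node, log2 mean ± SD, n = 3 each; limma adjusted p = 0.0167), the 15th highest of 18193. The ratio within arrays of one number was 15.3, 16.1 and 16.6. Nr4a2 was no longer called when spinal cord array 2 (limma adjusted p = 0.0831) or lymph node array 1 or 2 (0.0506 and 0.0962) was left out, while the log2 change stayed between 3.59 and 4.37.

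Nr4a3 (Nor1), known in T cells as another marker of recent receptor engagement, had intensities of 4206, 3929 and 10055 on spinal cord arrays, against 838, 936 and 1295 on lymph node arrays. Array 3 again was the highest in each tissue, and the groups did not overlap. The log2 change was 2.45 ± 0.40 (SE; 12.42 ± 0.76 in spinal cord, against 9.97 ± 0.33 in lymph node, log2 mean ± SD, n = 3 each; limma adjusted p = 0.0386). The ratio within arrays of one number was 5.02, 4.20 and 7.76. Without spinal cord array 1 or 2 the limma adjusted p was 0.082 and 0.0935, and without lymph node array 1, 2 or 3 it was 0.101, 0.165 and 0.0867, so that the call held only without spinal cord array 3, where the log2 change was lowest at 2.02.

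Egr1, an immediate early gene of many cell types, had intensities of 14419, 11351 and 8325 on spinal cord arrays, against 8006, 5121 and 3110 on lymph node arrays. The lowest spinal cord array lay just above the highest lymph node array, and array 1 was the highest and array 3 the lowest in each tissue, as for Nr4a1. The log2 change was 1.14 ± 0.38 (SE; 13.44 ± 0.40 in spinal cord, against 12.30 ± 0.68 in lymph node, log2 mean ± SD, n = 3 each; limma adjusted p = 0.239). With the array number as a block the SE fell to 0.14 and Egr1 was called (limma adjusted p = 0.00977), and the ratio within arrays of one number was 1.80, 2.22 and 2.68.

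Egr2, which restrains T cell activation and is linked to anergy, had intensities of 4089, 4882 and 2909 on spinal cord arrays, against 2852, 3904 and 4088 on lymph node arrays. The groups overlapped. The log2 change was 0.12 ± 0.24 (SE; 95% interval -0.47 to 0.70; limma adjusted p = 0.89). It was -0.05 without spinal cord array 2 and -0.04 without lymph node array 1. Arrays of one number did not move one way, with spinal cord to lymph node ratios of 1.43, 1.25 and 0.712.

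Egr3, which acts alongside Egr2 in T cells, had intensities of 2863, 3974 and 2949 on spinal cord arrays, against 1662, 2958 and 3177 on lymph node arrays. Lymph node array 1 was the lowest of the 6 and the other 5 arrays were interleaved. The log2 change was 0.37 ± 0.29 (SE; 95% interval -0.33 to 1.06; limma adjusted p = 0.665), with ratios of 1.72, 1.34 and 0.928 within arrays of one number. The intervals of Egr2 and Egr3 leave room for a change of either sign but lie wholly below those of Nr4a1 (1.84 to 3.80), Nr4a2 (2.80 to 5.20) and Nr4a3 (1.49 to 3.42). That of Egr1 (0.21 to 2.07) overlapped those of Nr4a1 and Nr4a3. Each interval is for the probe set used for the gene, and other Nr4a2 and Nr4a3 probe sets had smaller changes. The block did not call Egr2 or Egr3 (limma adjusted p = 0.783 and 0.29). It called Nr4a1, Nr4a2 and Nr4a3 (limma adjusted p = 0.00115, 0.000346 and 0.00266), while the fits without 1 array had no block.

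Because a change called in one gene and not in another does not show that the 2 differ, the difference itself was tested for each of the 9 pairs of an Nr4a and an Egr gene. On each array the log2 value of the Egr gene was taken from that of the Nr4a gene, and these within-array differences were compared between tissues by an exact two-sided permutation test, in which 3 against 3 arrays cannot give a p under 0.1. In 8 of 9 pairs the spinal cord and lymph node arrays did not overlap, and the exact permutation p was 0.1 (0.113 adjusted over the 9 pairs). The pairs share the same 6 genes, chosen with earlier results known, so these 8 are not separate results. The permutation took no account of the array number, and no share over other gene pairs was taken. The largest gap was between Nr4a2 and Egr2, where the tissue change differed by 3.88 ± 0.68 (log2, SE), and the smallest of the 8 was between Nr4a1 and Egr1, at 1.68 ± 0.16. The exception was Nr4a3 with Egr1, at 1.31 ± 0.87, where the groups overlapped (exact permutation p = 0.3).

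The Nr4a1 and Egr1 difference had the smallest SE, and both genes were highest on array 1 and lowest on array 3 in each tissue. Centred on the lymph node mean it was 1.86, 1.38 and 1.81 on spinal cord arrays, against 0.04, -0.07 and 0.03 on lymph node arrays (log2). For Nr4a3 and Egr1 it was 0.55, 0.79 and 2.60 on spinal cord arrays, against -0.93, -0.13 and 1.06 on lymph node arrays. In each tissue array 3 was the highest for Nr4a3 and the lowest for Egr1. Within arrays of one number the difference was positive each time (1.48, 0.92 and 1.54, log2).

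Averaged over each family, the contrast between Nr4a and Egr was higher on each spinal cord array than on any lymph node array. The Nr4a mean, centred on lymph node, was 2.91, 2.80 and 3.55 on spinal cord arrays, against -0.06, -0.09 and 0.15 on lymph node arrays (log2). The Egr mean was 0.64, 0.76 and 0.22 on spinal cord arrays, against -0.08, 0.13 and -0.05 on lymph node arrays. The Nr4a mean minus the Egr mean was 2.28, 2.04 and 3.33 in spinal cord, against 0.02, -0.22 and 0.20 in lymph node, a difference of 2.55 with SDs of 0.69 in spinal cord and 0.21 in lymph node. Spinal cord array 3 had the highest Nr4a mean and the lowest Egr mean of its tissue. Since the genes were chosen with earlier results known, no p-value is given for these means.

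**Figure D3:**
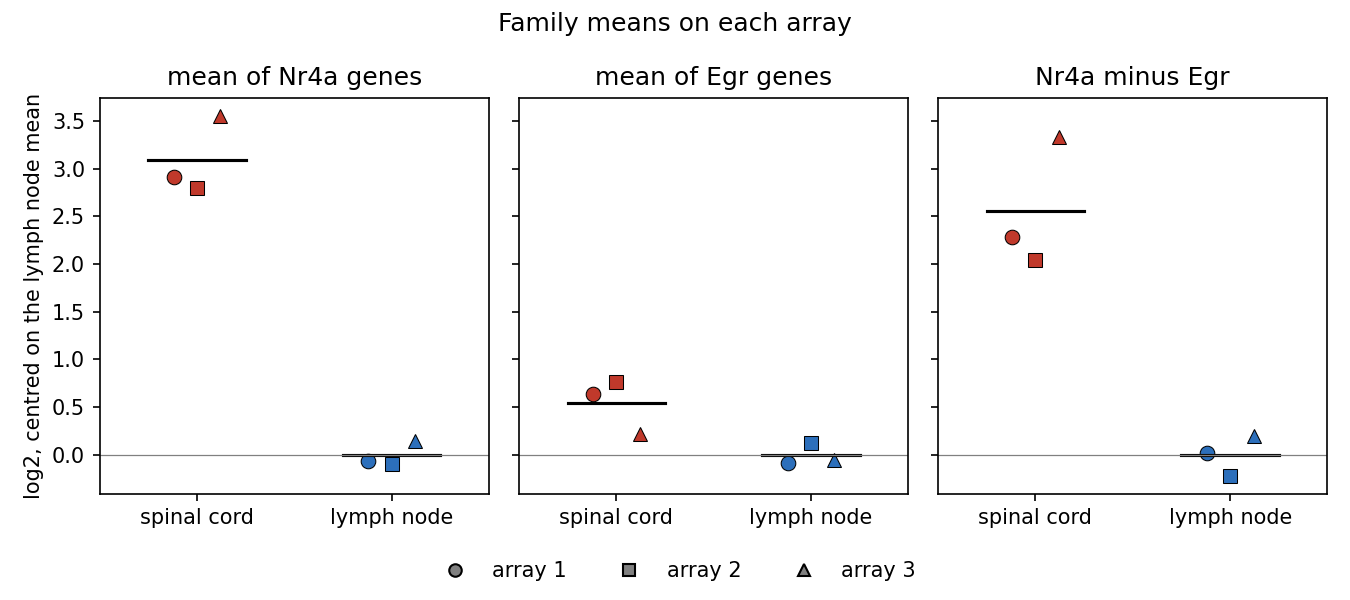
Mean log2 value of the 3 Nr4a genes, of the 3 Egr genes, and their difference on each array, centred on the lymph node mean, with spinal cord left of lymph node; lines are tissue means (n = 3). The difference is 2.04 to 3.33 on spinal cord arrays and -0.22 to 0.20 on lymph node arrays.

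All 15 probe sets of the 6 genes had positive fitted changes, from 0.06 to 4.0 on the log2 scale, but their sizes differed within a gene. In the fit over all 45037 probe sets that were not controls, 4 of the 15 were called higher by limma, the single one of Nr4a1 and 3 of Nr4a2, against 0.573% of all probe sets (1.19% in either direction). With the array number as a block 6 of 15 were called, against 2.47% of all probe sets (6.2% in either direction). The Nr4a3 probe set used above had an adjusted p of 0.0606 by limma over probe sets (0.0075 with the block), so its call over genes sits close to the threshold. Of the 15, 11 had groups that did not overlap, all higher in spinal cord, as 8.30% of all probe sets did (15.9% in either direction).

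Of the 6 Nr4a2 probe sets 3 were called, the one used for the gene and the 2 that follow. Probe set 1447863_s_at had 594, 920 and 900 on spinal cord arrays, against 77, 73 and 65 on lymph node arrays, a log2 change of 3.46 ± 0.20 (SE; limma adjusted p = 0.00476 over probe sets). Probe set 1450750_a_at had 382, 579 and 367 on spinal cord arrays, against 35, 51 and 42 on lymph node arrays, a log2 change of 3.36 ± 0.23 (limma adjusted p = 0.00781). These 2 varied less between arrays than 1455034_at, the probe set used for the gene, and array 3 was not the highest of its tissue on either one in spinal cord.

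The other 3 Nr4a2 probe sets had smaller changes, and only 1433423_at read near the dim end. Probe set 1450749_a_at had 129, 273 and 196 on spinal cord arrays, against 81, 74 and 94 on lymph node arrays (log2 change 1.20 ± 0.28; limma adjusted p = 0.154). Probe set 1433423_at read 35 to 41 on spinal cord arrays, against 26 to 28 on lymph node arrays, close to 25, the 20th percentile of all values. Probe set 1433422_at read 83, 123 and 92 on spinal cord arrays, against 78, 92 and 89 on lymph node arrays, with overlap (log2 change 0.19 ± 0.18). Which part of the transcript each reads was not analysed here.

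The Nr4a3 probe sets 1421080_at and 1421079_at, whose means lay above those of 65.3% and 38.6% of all probe sets, read 160 to 184 and 47 to 66 in spinal cord, against 134 to 155 and 32 to 40 in lymph node. They had log2 changes of 0.22 ± 0.12 and 0.61 ± 0.17 (SE; limma adjusted p = 0.571 and 0.228), far smaller than that of 1438796_at. Both Egr2 probe sets were bright and gave like values: 1427682_a_at had 2967, 3998 and 2417 on spinal cord arrays, against 2196, 3532 and 3289 on lymph node arrays (log2 change 0.06 ± 0.26). The other Egr3 probe set, 1421486_at, had 225, 238 and 298 on spinal cord arrays, against 191, 215 and 218 on lymph node arrays (log2 change 0.28 ± 0.14; limma adjusted p = 0.553), narrowly without overlap. The 2 Egr2 probe sets thus give the same picture, while the Nr4a2 and Nr4a3 changes depend on which probe set is read. With the mean of a gene's probe sets the log2 changes were 2.12 for Nr4a2 and 1.09 for Nr4a3, and limma still called both (adjusted p = 0.0067 and 0.0407).

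**Figure D4:**
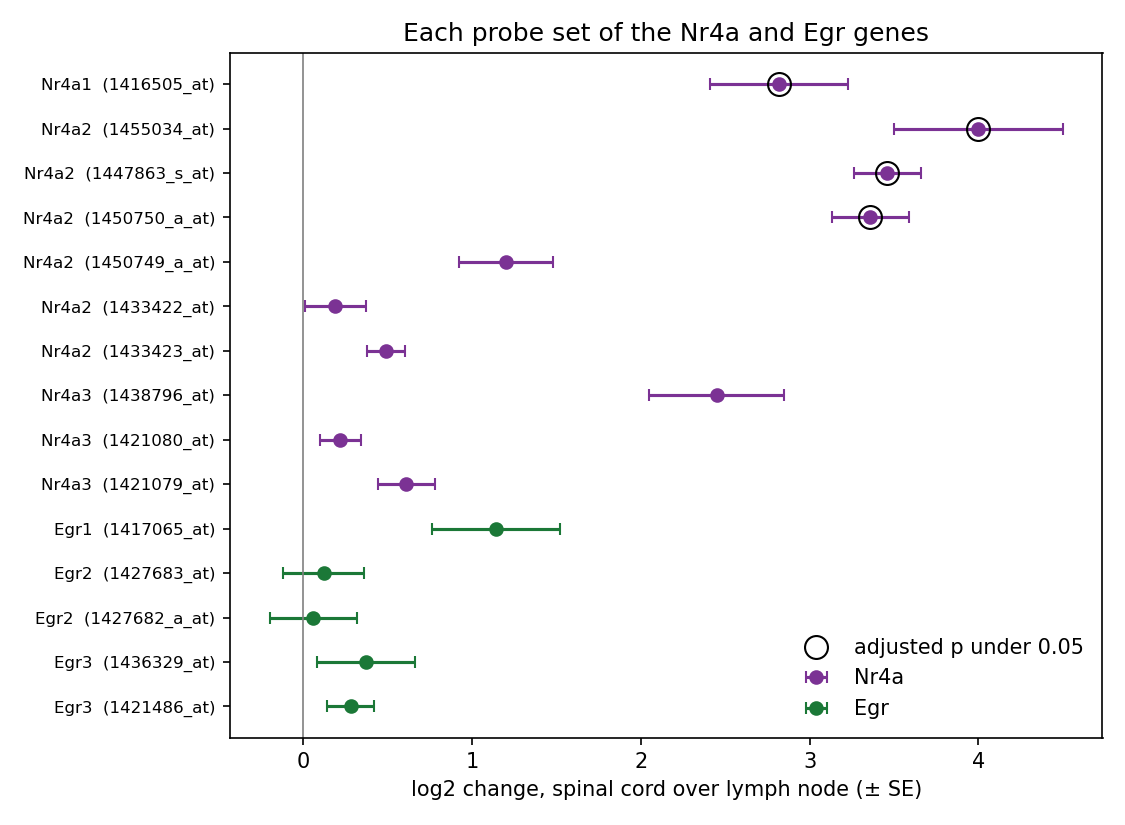
Log2 change (spinal cord over lymph node) of each of the 15 probe sets with its SE from limma over all probe sets; circled points have an adjusted p under 0.05. The Nr4a probe sets range from 0.19 to 4.0 and the Egr probe sets from 0.06 to 1.14.

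The early response list, of genes switched on by antigen receptor signals like the Nr4a and Egr genes, held higher calls too. Of 20 members 5 were called higher by limma and 0 lower, with a median log2 change of 1.34, beside 1.13% called higher and a median of 0.0 over all genes. Tnfaip3, which encodes the NF-kB inhibitor A20, had intensities of 18547, 21857 and 19482 on spinal cord arrays, against 3146, 3415 and 2875 on lymph node arrays (6.35-fold higher; limma adjusted p = 0.00171). Bhlhe40, a transcription factor needed for GM-CSF production by T cells, was 9.87-fold higher, Ifrd1 2.72-fold and the early activation antigen gene Cd69 3.63-fold (limma adjusted p = 0.00191, 0.00818 and 0.00824). The remaining call, Nfkbiz, an atypical NF-kB inhibitor, was 3.49-fold higher (limma adjusted p = 0.0351), was not called in any fit without 1 array, and is named after its value was seen. With the array number as a block 13 members were called higher, beside 3.67% of all genes. Without spinal cord array 2 the fit called 2 members, and without lymph node array 2 it called 3, beside 49 and 50 of all 18193 genes. Without lymph node array 1 it called 6, beside 122 genes, and the remaining fits without 1 array called 4 or 5. Fosb, a subunit of the factor AP-1, had the largest fitted change of the list and is also named after its value was seen. It had 3436, 2963 and 966 on spinal cord arrays, against 376, 99 and 43 on lymph node arrays (log2 change 4.20 ± 0.88; limma adjusted p = 0.079, and 0.0027 with the block). Tnfaip3 and Bhlhe40 were called in each of the 6 fits without 1 array.

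Partners of the 2 families did not pass the test. Of 6 genes, 0 were called by limma, with or without the block (1 at an unadjusted p under 0.05), and the median log2 change was 0.06 (mean -0.11). Nab2, an Egr corepressor that Egr factors themselves induce, had intensities of 542, 325 and 167 on spinal cord arrays, against 768, 456 and 211 on lymph node arrays (log2 change -0.44 ± 0.60; limma adjusted p = 0.825). Within arrays of one number it was lower in spinal cord each time. Rxra, a nuclear receptor that pairs with Nr4a1 and Nr4a2, had a log2 change of -0.61 ± 0.25 (limma adjusted p = 0.347), and Rxrg read 46 to 51 on spinal cord arrays, against 41 to 55 on lymph node arrays. Egr4, the remaining Egr gene, read 79 to 83 on spinal cord arrays, against 70 to 73 on lymph node arrays, narrowly without overlap. It had a log2 change of 0.17 ± 0.10 (limma adjusted p = 0.533).

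In the Erk pathway the calls without the block were phosphatases that act in feedback. Of 14 measured members 2 were called higher by limma and 0 lower, beside 1.13% and 1.41% of all genes, with a median of 0.23. With the block 3 were called higher and 1 lower, beside 3.67% and 7.45% of all genes. Dusp5, a nuclear phosphatase of Erk, had intensities of 6239, 5328 and 4964 on spinal cord arrays, against 369, 718 and 420 on lymph node arrays, 11.4-fold higher (limma adjusted p = 0.00555). Dusp4, another nuclear phosphatase of the family, was 5.87-fold higher (limma adjusted p = 0.0471) and was not called in any fit without 1 array. Each of those 6 fits thus called 1 member higher, beside 49 to 136 of all 18193 genes. Elk4, a partner of serum response factor, had a log2 change of -0.80 ± 0.30 (limma adjusted p = 0.298; 0.0228 with the block). Dusp6, a cytoplasmic phosphatase of Erk named after its value was seen, had one of 1.17 ± 0.71 (limma adjusted p = 0.557; 0.019 with the block), and the kinase gene Map2k1 one of 0.46 ± 0.19 (limma adjusted p = 0.358).

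Genes of calcineurin and NFAT were not called by limma (0 of 12, with 2 at an unadjusted p under 0.05, median -0.03 and mean 0.08), and 2 were called higher with the block, beside 3.67% of all genes. These 2 were the calcineurin catalytic subunit genes Ppp3cc (log2 change 0.91 ± 0.22; limma adjusted p = 0.121, and 0.0333 with the block) and Ppp3ca (0.82 ± 0.27; 0.236 and 0.0322). Rcan1, a calcineurin regulator that NFAT induces, had a log2 change of -0.36 ± 0.17 and Nfatc1 one of -0.23 ± 0.15, and in both the groups overlapped.

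Of 15 measured cyclic AMP and CREB genes 2 were called higher by limma and 0 lower, beside 1.13% and 1.41% of all genes, with a median of -0.08 and a mean of 0.40. With the block 3 were called higher and 1 lower, beside 3.67% and 7.45% of all genes. Crem, whose short products repress CREB targets and which is itself induced by cyclic AMP, had intensities of 2218, 1695 and 2597 on spinal cord arrays, against 268, 354 and 271 on lymph node arrays. It was 7.24-fold higher (limma adjusted p = 0.00505) and was called in each of the 6 fits without 1 array. Per1, a clock gene with a CRE, was 5.17-fold higher (limma adjusted p = 0.0256) and kept its call in 1 of those fits, the one without lymph node array 1. Without any of the other 5 arrays 1 member was called higher, and without lymph node array 1 a single member, Pde3b, was called lower. Those 6 fits called 49 to 136 of all 18193 genes higher and 32 to 190 lower. Pde3b, a phosphodiesterase gene, had a log2 change of -0.75 ± 0.16 (limma adjusted p = 0.0863; 0.0341 with the block) and Pde4a one of 0.50 ± 0.16 (limma adjusted p = 0.212). Pde4b, named after its value was seen, had one of 1.36 ± 0.58 (limma adjusted p = 0.375; 0.022 with the block).

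Genes reported downstream of Egr2 and Egr3 in T cells included calls although Egr2 and Egr3 were not called. Of 18 members 3 were called higher by limma and 0 lower, beside 1.13% and 1.41% of all genes, with a median of 0.14. Cdkn1a, the cell cycle inhibitor p21, had intensities of 2603, 2313 and 2738 on spinal cord arrays, against 193, 225 and 157 on lymph node arrays (13.4-fold higher; limma adjusted p = 0.00171). Fasl, which encodes the death ligand, was 6.01-fold higher, and the chemokine gene Ccl1 12.2-fold (limma adjusted p = 0.0116 and 0.0335). Of the 6 fits without 1 array, Cdkn1a was called in 6, Fasl in 3 and Ccl1 in 1. All 3 have other known inducers, and what induced them here was not tested. Tnfrsf9, the costimulatory receptor 4-1BB, had a log2 change of 1.10 ± 0.23 (limma adjusted p = 0.0806; 0.00692 with the block). With the block 8 members were called higher and 3 lower, beside 3.67% and 7.45% of all genes. Without array 2 of spinal cord or of lymph node a single one was called, beside 49 and 50 of all 18193 genes called higher.

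Genes reported downstream of Nr4a factors in T cells went both ways. Of 15 measured members 2 were called higher by limma and 2 lower, beside 1.13% and 1.41% of all genes, with a median of -0.12. Havcr2, the inhibitory receptor Tim-3, had intensities of 288, 469 and 577 on spinal cord arrays, against 49, 43 and 57 on lymph node arrays (8.66-fold higher; limma adjusted p = 0.00777), and the interleukin-2 receptor gene Il2ra was 4.50-fold higher (0.0155). Tox, a factor of exhausted and follicular T cells, had 100, 102 and 157 on spinal cord arrays, against 594, 848 and 805 on lymph node arrays (6.33-fold lower; limma adjusted p = 0.00777), and Ikzf2, which encodes Helios, was 5.42-fold lower (0.00824). With the block 3 were called higher and 4 lower, beside 3.67% and 7.45% of all genes. Without array 2 of either tissue 0 were called higher and 1 lower, and without spinal cord array 1 or 3, 1 was called higher.

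**Figure D5:**
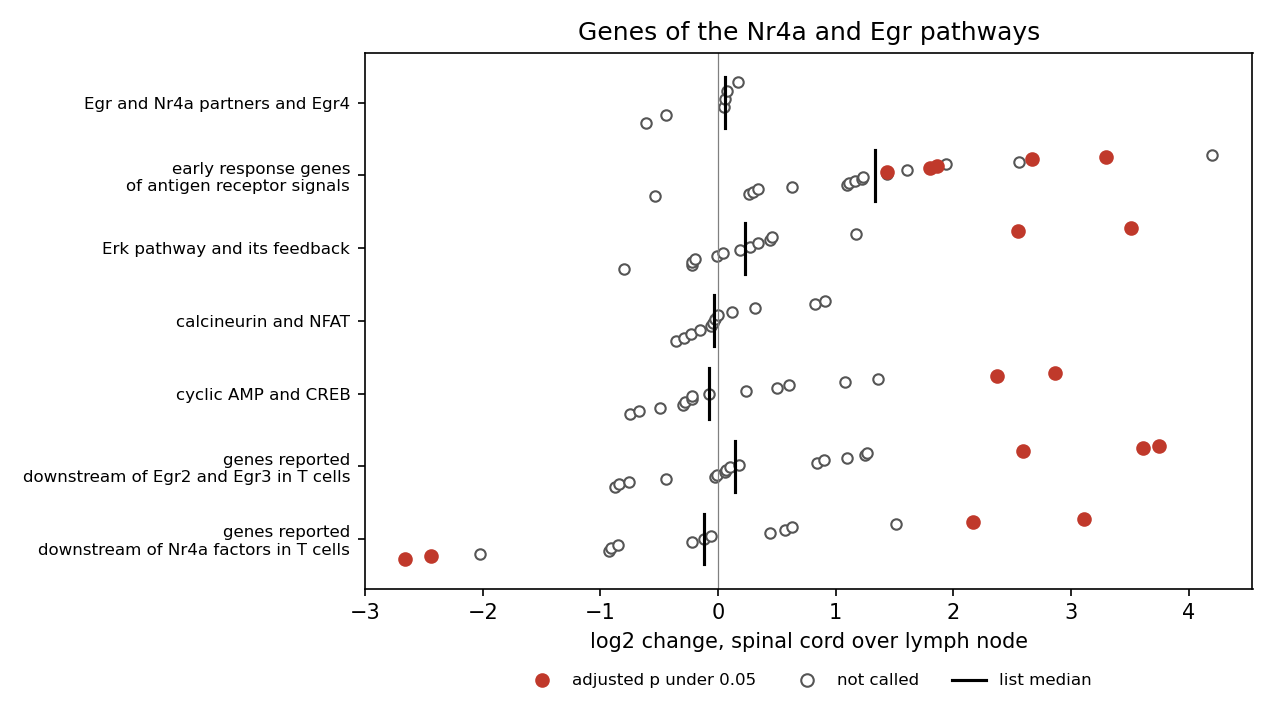
Log2 change (spinal cord over lymph node) of each measured gene in the 7 pathway lists; filled points have a limma adjusted p under 0.05, open points do not, and bars are list medians. The early response list has the highest median, 1.34.

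Markers of other cell types moved with tissue in part, and Nr4a and Egr genes are also expressed outside T cells. Of 12 measured macrophage, monocyte and microglia markers 0 were called by limma (9 at an unadjusted p under 0.05) and 4 were called higher with the block, beside 3.67% of all genes. In 9 of the 12 the groups did not overlap and were higher in spinal cord, as in 8.81% of all genes. The fit without spinal cord array 1 called 136 of all 18193 genes higher, 3 of these markers among them. The median log2 change of the 12 markers was 0.88. Their summed intensity was 11666, 18365 and 12463 in spinal cord arrays 1, 2 and 3, against 14148, 15105 and 14624 in lymph node, with overlap. Most of that sum was Ctss, a protease gene also active in other antigen-presenting cells, which read 9965 to 13155 on spinal cord arrays, against 13529 to 14454 on lymph node arrays (log2 change -0.33 ± 0.14; limma adjusted p = 0.369). The other 11 markers summed to 1219, 5210 and 2498 on spinal cord arrays, against 619, 651 and 711 on lymph node arrays, without overlap. Csf1r, the macrophage growth factor receptor, read 237, 1486 and 754 on spinal cord arrays, against 99, 57 and 98 on lymph node arrays. Lyz2, a lysozyme gene, read 245, 1771 and 563 on spinal cord arrays, against 78, 81 and 78 on lymph node arrays. Tyrobp, a myeloid signalling adaptor, and Cx3cr1, the fractalkine receptor, had log2 changes of 1.87 ± 0.39 and 2.18 ± 0.65 (limma adjusted p = 0.0782 and 0.193).

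Spinal cord array 2 was the highest for Csf1r and Lyz2. Among spinal cord arrays it was also the highest for Egr2, for Egr3 and for the Nr4a2 probe sets 1447863_s_at, 1450750_a_at, 1450749_a_at and 1433422_at. The same held for the Nr4a3 probe set 1421080_at. Spinal cord array 2 was the lowest for 1438796_at, the probe set used for Nr4a3, and for the Nr4a mean. Without it the log2 changes of Nr4a1, Nr4a2 and Nr4a3 were 2.96, 4.05 and 2.69, and none was called. Without spinal cord array 1, the lowest for these markers, they were 2.54, 4.35 and 2.64. These changes are for the probe set used for each gene. Every spinal cord array read above all lymph node arrays for Csf1r and Lyz2, so no fit was free of the raised markers. The share of the Nr4a signal that comes from other cells was not tested.

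Each of the other marker lists held at most 1 call by limma without the block. Over all genes 1.13% were called higher and 1.41% lower, and 3.67% and 7.45% with the block. Of 6 neutrophil markers 0 were called by limma, with or without the block (1 at an unadjusted p under 0.05), with sums of 324, 1212 and 482 on spinal cord arrays, against 346, 257 and 282 on lymph node arrays. S100a8 read 53, 752 and 122 on spinal cord arrays, against 30 to 59 on lymph node arrays, with overlap. Of 6 dendritic cell markers Itgax, an integrin gene that activated T cells can also express, was called higher (2.88-fold; limma adjusted p = 0.0128) but not without array 2 of either tissue, Xcr1 lay under 25 on every array, and sums were 592 to 685 on spinal cord arrays, against 386 to 447 on lymph node arrays. Of 6 B cell markers Cd22 was called lower (6.36-fold; limma adjusted p = 0.00171), and Cd79b was too with the block (log2 change -1.15 ± 0.29; limma adjusted p = 0.134, and 0.0267 with the block). The B cell sums were 308 to 341 on spinal cord arrays, against 918 to 963 on lymph node arrays, most of it Cd22. Without Cd22 they were 233, 210 and 217 on spinal cord arrays, against 320, 239 and 213 on lymph node arrays, with overlap. Of 5 CD8 T cell and NK cell markers Klrk1 was called higher (2.53-fold; limma adjusted p = 0.0136) but not without spinal cord array 2 or 3. Eomes, a factor of cytotoxic cells, had 52, 93 and 306 on spinal cord arrays, against 113, 406 and 1185 on lymph node arrays, and was called lower with the block (log2 change -1.73 ± 1.0; limma adjusted p = 0.534, and 0.00898 with the block). The sums of this list were 623 to 935 on spinal cord arrays, against 586 to 1631 on lymph node arrays. Of 7 neural and 7 endothelial and stromal markers 0 were called by limma, with or without the block (0 and 1 at an unadjusted p under 0.05). The neural sums were 3635 to 6212 on spinal cord arrays, against 4023 to 6332 on lymph node arrays, nearly all of it Mbp, a myelin protein gene. The other 6 neural markers summed to 231, 242 and 238 on spinal cord arrays, against 222, 200 and 225 on lymph node arrays, narrowly without overlap. The endothelial and stromal sums were 473 to 544 on spinal cord arrays, against 385 to 700 on lymph node arrays. The neural markers Mog, Snap25 and Olig2 lay under 25 on every array.

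The genes whose log2 values ran most like each member's over the 6 arrays, among 10915 brighter genes, differed between members. These correlations are descriptions over arrays that share tissue and array number, and many genes reach high values. Nr4a3 ran closest to Ccl1 (Pearson r = 0.998), which read 638, 668 and 2503 on spinal cord arrays, against 70, 78 and 108 on lymph node arrays, and to the kinase gene Plk2 (r = 0.995). Nr4a1 ran closest to Ifitm3, an interferon-inducible membrane protein gene, and Tmem88 (r = 0.995 and 0.994). Nr4a2 ran closest to the small GTPase gene Rhoc and to Rcn1, which encodes a calcium-binding protein (r = 0.995 and 0.994).

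Egr1 ran closest to Irf2bp2, a corepressor gene (r = 0.998), which read 6033, 4172 and 3055 on spinal cord arrays, against 3039, 1871 and 978 on lymph node arrays, and to N4bp3 (r = 0.996). Egr2 ran closest to Snupn, a nuclear import adaptor gene, and to Abi2, an actin regulator gene (r = 0.970 and 0.964). Egr3 ran closest to Qsox2 and Arhgap26 (r = 0.975 and 0.970).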

How the data were processed

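RNA was extracted with an RNeasy kit, and 1 ng was amplified in 2 cycles and labelled for Affymetrix arrays, per the labels' protocols. The deposited values are linear intensities, summarised with RMA by the authors per the submitters' processing notes, with no version given in the sources used here. No scanner files were used here, so probe-level background was not analysed. Precision is limited by the 6 arrays.

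The deposited intensities were put on the log2 scale. Of 45101 probe sets, 64 controls were left out, and 34945 had 1 gene symbol, 932 several (not used for genes) and 9160 none. The probe set with the highest mean stood for each of 18193 genes. limma 3.58.1 (R 4.3.3; lmFit and eBayes) compared 3 spinal cord with 3 lymph node arrays. p-values were adjusted by Benjamini-Hochberg over all genes, or over 45037 probe sets, and called under 0.05. The fit without the block was tested on simulated data, with noise drawn separately for each array. That simulation held no deviations shared by arrays of one number. SciPy 1.17.1 gave exact permutation tests and matplotlib 3.10.9 the figures. No 2 arrays were copies, with at least 93.5% of probe sets differing in each pair.

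Arrays of the same number deviated together, with correlations of their deviations from the tissue means of 0.576, 0.509 and 0.777, against -0.569 to 0.00506 for arrays of different number. The numbers were therefore taken to pair the arrays in an alternative fit, with the array number as a block. The main fit, the fits without 1 array and the permutation tests used tissue only. The pairing rests on the data, since the labels give only the number. Deviations from a tissue mean cancel out within the tissue, so high correlations for the same number themselves lower the others. The calls with the block, that of Egr1 among them, rest on this pairing.

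The text names the 6 genes and their probe sets, up to 4 genes of each list with the lowest adjusted p, and the 2 genes most correlated with each member among those whose mean lies over the 40th percentile. The members and lists were chosen with earlier results of these data known. Alternatives covered the pairing, single arrays left out, scaling, variance model, dim values, choice of probe set and threshold. Promoter windows came from a RefSeq table (GRCm38.p6) of 32851 windows.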

Additional observations from a re-analysis of the deposited data

How the results depend on the processing

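With the array number as a replicate block, the counts of genes became 668 higher and 1355 lower, against 206 and 257 without it, and Egr1 was called (log2 change 1.14, limma adjusted p = 0.00977), while the calls of the other 5 genes did not change. Leaving out 1 array gave 49 to 136 genes higher and 32 to 190 lower, with log2 changes of 2.49 to 3.18 for Nr4a1, 3.59 to 4.37 for Nr4a2, 2.02 to 2.69 for Nr4a3, 0.79 to 1.47 for Egr1 and 0.07 to 0.54 for Egr3. Egr2 ranged from -0.05 to 0.32 and fell below 0 when spinal cord array 2 (-0.05) or lymph node array 1 (-0.04) was omitted.

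With values floored at the 20th percentile, 77 genes were higher and 84 lower. The log2 changes of Nr4a1 (2.82), Nr4a2 (4.0) and Nr4a3 (2.45) stayed but were not called (limma adjusted p = 0.0913, 0.0731 and 0.113). At an adjusted p under 0.01 there were 56 genes higher and 47 lower, none of the 6 genes among them, and at under 0.1 there were 322 and 472. Adjusting over all probe sets gave Nr4a3 an adjusted p of 0.0606. With the mean of a gene's probe sets the Nr4a minus Egr difference was 1.49, against 2.55, since probe sets with smaller changes enter that mean, and the log2 changes of Nr4a2 and Nr4a3 were 2.12 and 1.09, still called. The remaining alternatives kept the direction and the call of all 6 genes.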
